A study of Mus musculus with 8 samples.

Results

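The DNA damage signalling and repair genes described here are 49 genes of the damage kinases, the 53BP1 pathway, homologous recombination, end joining, base, nucleotide and mismatch repair, the Fanconi anaemia genes and the RecQ helicases. They were taken by gene symbol, and all 49 were found among the 55226 genes of the expression table. Poly(A) RNA was sequenced from bone marrow-derived macrophages (BMDMs) of C57BL/6 mice, grown with the growth factor M-CSF. The 4 groups were PtipcKO cells after 6 h of LPS at 100 ng/ml, PtipcKO cells at 0 h, PtipWT cells after 6 h of LPS at 100 ng/ml and PtipWT cells at 0 h, with 2 samples in each. PtipcKO (cKO below) is a conditional knockout of PTIP, the protein of Paxip1, and PtipWT (WT below) is its wildtype. The Cre driver, the deleted exons and the age of the mice are not given in the labels. LPS is a bacterial cell wall component that activates macrophages.

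A DNA double-strand break activates the kinase ATM, while single-stranded DNA at stalled replication forks activates ATR, and both kinases signal through the checkpoint kinases CHK1 and CHK2. Around a break, MDC1 and the ubiquitin ligases RNF8 and RNF168 prepare the chromatin for 53BP1, which with its effectors RIF1 and PTIP directs breaks toward end joining. Homologous recombination copies the sister chromatid and belongs to dividing cells, whereas end joining, excision repair and single-strand break repair also serve cells that no longer divide. Macrophages make reactive oxygen and nitrogen species when stimulated, which can damage their own DNA.

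Values are the authors' regularised log2 expression values (rlog), on which a difference of 1 is a 2-fold difference and in which changes of low genes are understated. Of the 49 genes, 43 had a mean rlog of at least 3 and were tested with limma. The 6 below that limit were Chek1, Brca2, Bard1, Mutyh, Fancd2 and Fanci, which are described here only by their values. A gene was called at an adjusted p under 0.05 over all 11543 tested genes. Depth is unknown because no counts were used. Across genes, which are no independent replicates, Pearson's r between the samples within each group was 0.987 to 0.992. After LPS, Paxip1 had 2.54 and 2.63 rlog in cKO cells, against 3.82 and 4.08 in WT cells, and at 0 h it had 2.54 and 2.48 in cKO cells, against 4.50 and 4.50 in WT cells. Its cKO values lay below every WT value (limma log2 difference -1.36 with SE 0.18 and adjusted p = 0.0156 after LPS, and at 0 h -1.99 with SE 0.18 and adjusted p = 0.00686). Those cKO values also lay under the limit of 3 rlog. The authors' own log2 fold changes of Paxip1 were -4.04 after LPS, which they did not call, and -4.75 at 0 h, which they called. All 9 macrophage markers listed for this check were among the tested genes. Whether samples with different replicate numbers came from different mice is not stated, and the p-values reflect how much these particular samples vary, which may be technical. The titles number the samples of a genotype alike at 0 h and after LPS, so the same number may mark the same source. The comparisons averaged over times treat all 8 samples as independent.

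After LPS, with the genotypes averaged, 16 of the 43 tested genes fell and 6 rose. The genes that fell made up 37.2% of those tested, beside 26.6% of all tested genes, and the genes that rose made up 14%, beside 27.3% of all tested genes. The genes that fell were Chek2, Xrcc6, Xrcc5, Ung, Xpc, Rad50, Pms2, Prkdc, Parp1, Ercc5, Xrcc1, Lig1, Ogg1, Brca1, Apex1 and Palb2. The genes that rose were Atm, Fanca, Msh3, Dclre1c, Ercc2 and Lig3. The median difference of the 43 genes was -0.18, beside -0.02 over all tested genes. In these bulk samples, fewer cells of a type and less RNA per cell cannot be told apart.

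**Figure D1:**
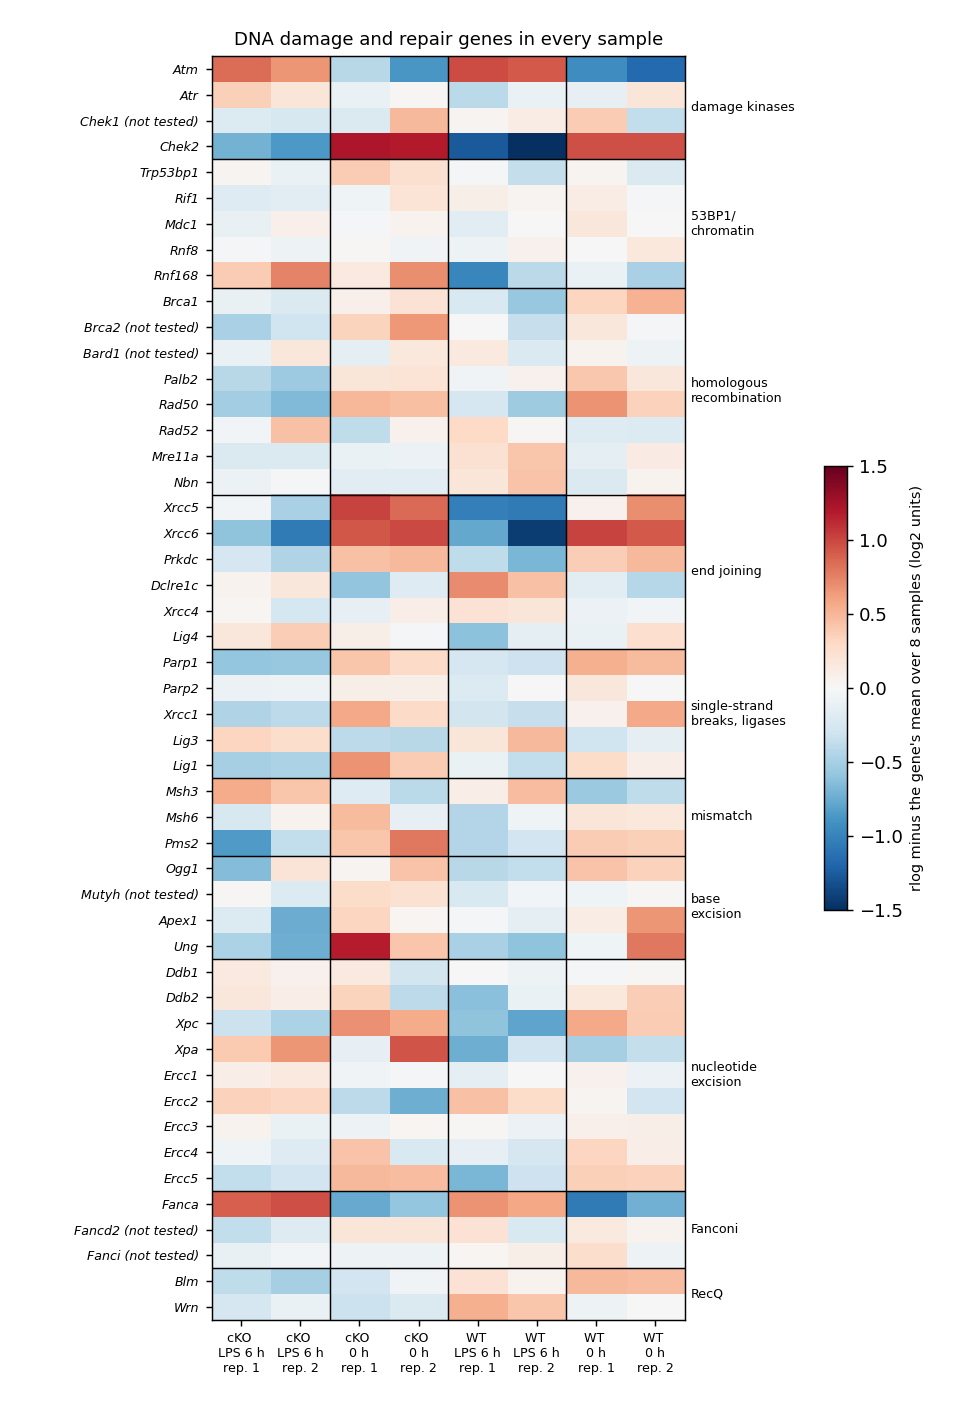
Each row is 1 of the 49 genes, grouped by role, and each column is 1 sample, with the 2 samples of a group side by side. The colour gives the sample's rlog value minus the gene's mean over the 8 samples, in log2 units, red above and blue below. Atm and Fanca are red in the LPS samples of both genotypes, Chek2 and Xrcc6 are blue there, and Rnf168 is red in the cKO samples. Xrcc5 is blue in the WT LPS samples and close to its mean in cKO LPS replicate 1.

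The promoters of 5 genes are shown because the results below dwell on them. Atm and Chek2 are the damage kinases that moved furthest in opposite directions after LPS. Xrcc5 and Xrcc6 encode the 2 subunits of the Ku end-binding protein and fell together. Rnf168 was called between the genotypes after LPS, at the threshold, and that call was lost under several alternatives. Each sequence is from RefSeq on GRCm38.p6 and runs 5′ to 3′ on the strand of its gene, from 250 bases before to 50 bases after the start. They lie at chr9:53536622-53536921 on the minus strand for Atm, and on the plus strand at chr5:110839733-110840032 for Chek2, chr1:72307171-72307470 for Xrcc5, chr15:82016119-82016418 for Xrcc6 and chr16:32277211-32277510 for Rnf168. The RefSeq start of Xrcc6 lies inside the GENCODE M21 gene, which begins upstream. Capitals mark exact matches to the motifs named after the sequences.
Atm: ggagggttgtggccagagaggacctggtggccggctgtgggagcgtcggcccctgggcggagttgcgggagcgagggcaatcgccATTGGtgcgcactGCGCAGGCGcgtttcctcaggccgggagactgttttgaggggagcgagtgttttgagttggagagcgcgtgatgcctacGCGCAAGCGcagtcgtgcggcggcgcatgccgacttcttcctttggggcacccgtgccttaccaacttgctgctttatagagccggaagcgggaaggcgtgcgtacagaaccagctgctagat
Chek2: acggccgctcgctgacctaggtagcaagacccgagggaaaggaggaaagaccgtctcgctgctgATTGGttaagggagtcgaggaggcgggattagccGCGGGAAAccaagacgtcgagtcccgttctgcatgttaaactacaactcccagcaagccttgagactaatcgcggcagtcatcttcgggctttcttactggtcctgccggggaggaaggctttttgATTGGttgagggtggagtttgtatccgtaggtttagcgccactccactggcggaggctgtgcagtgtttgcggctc
Xrcc5: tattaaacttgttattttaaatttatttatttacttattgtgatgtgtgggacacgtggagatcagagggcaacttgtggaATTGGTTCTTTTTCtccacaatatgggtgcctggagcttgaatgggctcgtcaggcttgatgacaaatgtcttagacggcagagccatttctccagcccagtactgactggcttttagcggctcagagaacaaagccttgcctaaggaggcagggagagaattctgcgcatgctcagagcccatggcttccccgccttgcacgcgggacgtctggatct
Xrcc6: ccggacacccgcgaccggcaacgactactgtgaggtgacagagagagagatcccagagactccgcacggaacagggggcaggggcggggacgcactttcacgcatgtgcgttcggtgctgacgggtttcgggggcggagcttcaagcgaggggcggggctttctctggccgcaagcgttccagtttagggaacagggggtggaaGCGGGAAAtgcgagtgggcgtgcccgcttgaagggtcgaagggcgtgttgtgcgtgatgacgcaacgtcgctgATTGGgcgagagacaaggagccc
Rnf168: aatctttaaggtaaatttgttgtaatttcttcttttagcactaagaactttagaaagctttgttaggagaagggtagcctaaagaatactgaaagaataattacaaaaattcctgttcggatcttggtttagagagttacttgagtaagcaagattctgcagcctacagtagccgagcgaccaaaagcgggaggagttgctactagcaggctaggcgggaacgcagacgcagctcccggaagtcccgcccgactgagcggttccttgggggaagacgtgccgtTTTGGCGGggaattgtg

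The motifs were searched as exact letters on both strands. They were the CCAAT box CCAAT, the nuclear respiratory factor motif NRF1 GCGCANGCG, the interferon response element GAAANNGAA, the NF-kB motif GGGANNTTC, and the E2F-type motifs TTTGGCGC, TTTCCCGC, TTTGGCGG, TTTCCCGG, TTTCGCGC and TTTGCCGC. No match shown above overlaps another. Atm has a CCAAT box starting at -165 and NRF1 matches starting at -152 and -73, counted from the start site. Chek2 has CCAAT boxes at -186 and -26 and an E2F-type match at -152, while Xrcc6 has an E2F-type match at -46 and a CCAAT box at 27. Xrcc5 has a CCAAT box at -169 and an interferon response element at -164, and Rnf168 has an E2F-type match at 33. A match is a description of the letters and not of a bound site.

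A promoter was found for 40 of the 49 genes. NRF1 matches were present in 4 of the 6 genes that rose after LPS (66.7%) and in 1 of the 13 genes with a promoter that fell (7.69%), beside 25% of the tested genes that were not called, 22.5% of the 40 and 7.03% of the 27025 genes with a promoter in the table. CCAAT boxes were present in 66.7% of the genes that rose and 76.9% of those that fell, beside 43.8% of the tested genes that were not called, 55% of the 40 and 41.1% of all genes. E2F-type matches were present in 16.7% of the genes that rose, 23.1% of those that fell and 25% of the 40, beside 4.55% of all genes. The share of NF-kB matches was 5% among the 40 and 4.47% among all genes, and that of the interferon response element was 20% and 9.76%. The promoters of the 40 genes also had a median GC content of 59.7%, against 52.7% over all promoters, and its part in these shares was not tested.

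Among the damage kinases, Atm rose and Chek2 fell after LPS in both genotypes. Atm, the kinase that double-strand breaks activate, had 6.80 and 6.62 rlog in cKO after LPS, against 5.55 and 5.09 in cKO at 0 h. In WT it had 6.94 and 6.88 after LPS, against 5.03 and 4.80 at 0 h. The LPS samples lay above all samples at 0 h, with a log2 difference of 1.39 (SE 0.20, limma adjusted p = 0.00109) in cKO and 2.0 (SE 0.20, adjusted p = 0.000127) in WT. Atm lies at chr9:53439149-53536740 on the minus strand of GRCm38.

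Chek2 encodes the checkpoint kinase that ATM phosphorylates. It had 5.5 and 5.34 rlog in cKO after LPS, against 7.42 and 7.39 in cKO at 0 h. The WT values were 4.94 and 4.70 after LPS, against 7.17 and 7.17 at 0 h. No LPS sample reached a sample at 0 h, and within each time both cKO samples lay above both WT samples. The LPS difference was -1.99 (SE 0.16, limma adjusted p = 6.65e-05) in cKO and -2.35 (SE 0.16, adjusted p = 2.34e-05) in WT, the lowest among the 43 genes in each genotype. Chek2 lies at chr5:110839979-110874145 on the plus strand. Atr, the kinase of stalled forks, was not called, with differences of 0.31 (SE 0.20) in cKO and -0.28 (SE 0.20) in WT. Chek1, the target of ATR, had 2.33 to 3.18 rlog over the 8 samples and was not tested.

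None of the 5 genes of the 53BP1 and chromatin signalling group was called for LPS. Trp53bp1, the gene of 53BP1, had LPS differences of -0.34 (SE 0.20) in cKO and -0.10 (SE 0.20) in WT. Its effector gene Rif1 had -0.25 (SE 0.17) in cKO and 0.02 (SE 0.17) in WT. Mdc1, which binds the phosphorylated histone next to a break, and the ubiquitin ligase gene Rnf8 stayed within 0.17 of 0 in both genotypes, with SEs of 0.17 to 0.18. These values lay within 2 SE of 0. Rnf168 had 0.14 (SE 0.28) in cKO and -0.40 (SE 0.28) in WT. Trp53bp1 shares 1873 exon bases with Tubgcp4 on the opposite strand, whose averaged LPS difference was 0.09 (limma adjusted p = 0.552). Rnf8 shares 744 exon bases with Gm28043 on the same strand. The part of these overlaps in the values was not tested.

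In the homologous recombination group, Rad50 fell in both genotypes. Rad50 is the coiled-coil partner of MRE11 and NBN in the complex that senses and trims broken ends. It had 7.01 and 6.88 rlog in cKO after LPS, against 8.03 and 7.99 in cKO at 0 h. In WT it had 7.29 and 7.00 after LPS, against 8.21 and 7.88 at 0 h. The groups did not overlap in either genotype (log2 difference -1.07, SE 0.17, limma adjusted p = 0.00163 in cKO, and -0.90, SE 0.17, adjusted p = 0.00309 in WT).

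The genes of RAD50's partner proteins were not called. Mre11a, the nuclease, had LPS differences of -0.12 (SE 0.17) in cKO and 0.33 (SE 0.17) in WT, and Nbn, the adaptor that brings ATM to the complex, had 0.12 (SE 0.15) in cKO and 0.39 (SE 0.15) in WT. Brca1, the ubiquitin ligase that favours recombination, was called in WT (-0.82, SE 0.20, limma adjusted p = 0.0104) and had -0.31 (SE 0.20, adjusted p = 0.255) in cKO. Brca1 averaged 3.13 rlog over the 8 samples, close to the limit of 3 for testing. Without WT LPS replicate 2 the WT difference was -0.65 (adjusted p = 0.0602), and without WT 0 h replicate 2 it was -0.73 (adjusted p = 0.0597). Palb2, which links BRCA1 to BRCA2, was called in cKO (-0.68, SE 0.18, adjusted p = 0.0193) and had -0.28 (SE 0.18, adjusted p = 0.248) in WT. The Palb2 call was lost when any 1 of the 4 cKO samples was left out, with adjusted p of 0.0568 to 0.102. Rad52, a single-strand annealing protein, had 0.36 (SE 0.23) in both genotypes and was not called. Brca2 ran from 2.47 to 3.61 rlog and Bard1, the partner of BRCA1, from 1.0 to 1.39, and neither was tested.

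End joining begins with Ku, a ring of the XRCC5 (Ku80) and XRCC6 (Ku70) subunits that slides onto a broken end and recruits the kinase DNA-PKcs, the product of Prkdc. All 3 of these genes fell in both genotypes. Xrcc6 had 5.91 and 5.45 rlog in cKO after LPS, against 7.44 and 7.50 in cKO at 0 h. The WT values were 5.75 and 5.09 after LPS, against 7.53 and 7.43 at 0 h. The 4 samples at 0 h lay within 7.43 to 7.53, and no LPS sample exceeded 5.91. The difference was -1.79 (SE 0.24, limma adjusted p = 0.000766) in cKO and -2.06 (SE 0.24, adjusted p = 0.000278) in WT. Xrcc6 shares 344 exon bases with Desi1 on the opposite strand, and Desi1 had an averaged LPS difference of 0.07 (adjusted p = 0.731). Xrcc6 lies at chr15:81987835-82040085 and Xrcc5 at chr1:72307421-72394952, both on the plus strand.

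Xrcc5 had 4.77 and 4.32 rlog in cKO after LPS, against 5.82 and 5.66 in cKO at 0 h. In WT it had 3.79 and 3.75 after LPS, against 4.87 and 5.51 at 0 h. The LPS samples were lower in each genotype, and the cKO samples lay above the WT samples of the same time. The LPS difference was -1.19 (SE 0.25, limma adjusted p = 0.00687) in cKO and -1.42 (SE 0.25, adjusted p = 0.0025) in WT. The cKO call was lost without cKO LPS replicate 2, when the difference was -0.97 (adjusted p = 0.057). Prkdc had 4.66 and 4.45 in cKO after LPS, against 5.34 and 5.39 in cKO at 0 h. WT cells had 4.52 and 4.22 after LPS, against 5.28 and 5.39 at 0 h. Its differences were -0.81 (SE 0.19, adjusted p = 0.0105) in cKO and -0.96 (SE 0.19, adjusted p = 0.00387) in WT, and the cKO call was lost without cKO 0 h replicate 2 (-0.79, adjusted p = 0.0506) or cKO LPS replicate 2 (-0.71, adjusted p = 0.0735). The authors' deposited table does not call Prkdc in either genotype, with adjusted p = 0.136 in cKO and 0.0665 in WT.

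The later steps of end joining did not fall with Ku. Dclre1c encodes Artemis, the nuclease that DNA-PKcs activates. It was called higher in WT (0.88, SE 0.18, limma adjusted p = 0.00498) and had 0.51 (SE 0.18, adjusted p = 0.0563) in cKO. Xrcc4 and Lig4, which encode the ligation complex, were not called. Xrcc4 had -0.11 (SE 0.15) in cKO and 0.26 (SE 0.15) in WT, and Lig4 had 0.24 (SE 0.23) in cKO and -0.45 (SE 0.23) in WT.

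**Figure D2:**
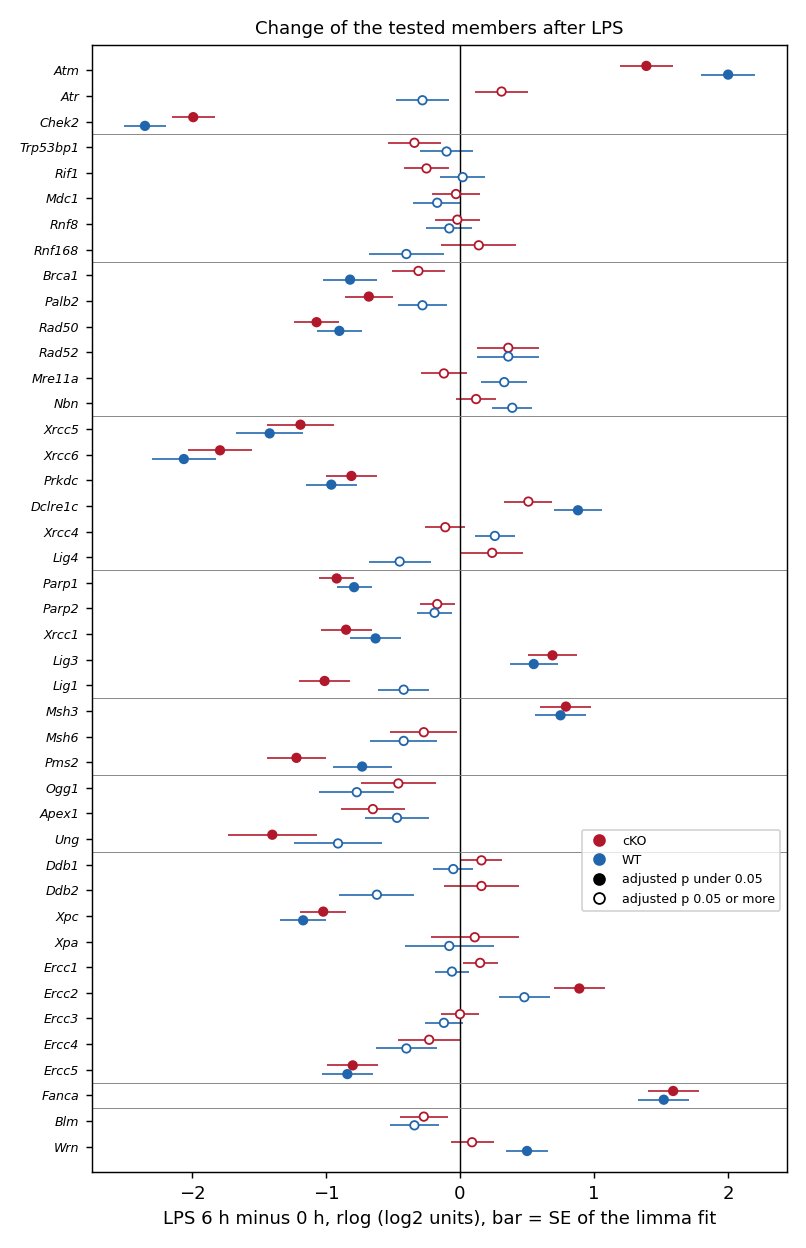
Points give the rlog difference of LPS 6 h minus 0 h for each of the 43 tested genes, in log2 units, red for cKO and blue for WT, with bars of 1 SE from the limma fit. Filled points have an adjusted p under 0.05. Atm and Fanca lie furthest to the right and Chek2 and Xrcc6 furthest to the left in both genotypes.

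In single-strand break repair, Parp1, which senses nicks and makes poly(ADP-ribose), and Xrcc1, the scaffold it recruits, fell in both genotypes. Parp1 had 7.13 and 7.15 rlog in cKO after LPS, against 8.13 and 8.0 in cKO at 0 h. WT cells had 7.46 and 7.41 after LPS, against 8.25 and 8.19 at 0 h. Its differences were -0.92 (SE 0.13, limma adjusted p = 0.000814) in cKO and -0.79 (SE 0.13, adjusted p = 0.00148) in WT. Its relative Parp2 was not called, with -0.17 (SE 0.13) in cKO and -0.19 (SE 0.13) in WT. Xrcc1 had -0.85 (SE 0.19, adjusted p = 0.00953) in cKO and -0.63 (SE 0.19, adjusted p = 0.029) in WT. The Xrcc1 call was lost in cKO without cKO 0 h replicate 1 (-0.70, adjusted p = 0.0629) or cKO LPS replicate 1 (-0.82, adjusted p = 0.0563). In WT it was lost without WT 0 h replicate 2 (-0.38), WT LPS replicate 1 (-0.67) or WT LPS replicate 2 (-0.59), with adjusted p of 0.0698 to 0.179.

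The DNA ligase genes differed in direction. Lig1, the ligase that joins replication fragments, had 4.59 and 4.61 rlog in cKO after LPS, against 5.76 and 5.47 in cKO at 0 h. The WT values were 4.99 and 4.71 after LPS, against 5.36 and 5.19 at 0 h. Lig1 was lower in every LPS sample than in the samples of its genotype at 0 h, with -1.01 (SE 0.19, limma adjusted p = 0.00418) in cKO and -0.42 (SE 0.19, adjusted p = 0.113) in WT. Lig3, the partner of XRCC1, was called higher at 0.69 (SE 0.18, adjusted p = 0.0159) in cKO and 0.55 (SE 0.18, adjusted p = 0.0344) in WT. The Lig3 call was lost in cKO without any 1 of the 4 cKO samples (0.66 to 0.72, adjusted p of 0.0603 to 0.0793). In WT it was lost without WT 0 h replicate 1 (0.48), WT 0 h replicate 2 (0.63), WT LPS replicate 2 (0.40) or either cKO LPS replicate (0.55), with adjusted p of 0.0547 to 0.174. Lig3 shares 1826 exon bases with Rffl on the opposite strand, which rose by 1.63 with the genotypes averaged (adjusted p = 6.23e-06), and without the strand setting the reads of the 2 genes cannot be told apart.

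The mismatch repair genes measured here also went both ways. MSH6 and MSH3 act in mismatch recognition, and PMS2 acts downstream of them as a nuclease. Pms2 had 4.22 and 4.70 rlog in cKO after LPS, against 5.49 and 5.87 in cKO at 0 h. WT cells had 4.64 and 4.79 after LPS, against 5.46 and 5.43 at 0 h. The LPS samples were lower in both genotypes (-1.22, SE 0.22, limma adjusted p = 0.00333 in cKO, and -0.73, SE 0.22, adjusted p = 0.0292 in WT). The WT call was lost without any 1 of the 4 WT samples (-0.80 to -0.65, adjusted p of 0.0619 to 0.112). Msh3 was called higher at 0.79 (SE 0.19, adjusted p = 0.0134) in cKO and 0.75 (SE 0.19, adjusted p = 0.0144) in WT. The Msh3 call was lost in cKO without cKO 0 h replicate 2 (0.69) or cKO LPS replicate 1 (0.71) and in WT without WT 0 h replicate 1 (0.66) or WT LPS replicate 2 (0.57), with adjusted p of 0.0739 to 0.084. Msh6 was not called, with -0.27 (SE 0.25) in cKO and -0.42 (SE 0.25) in WT.

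In base excision repair all 3 tested genes fell with the genotypes averaged. Ung, the glycosylase that removes uracil from DNA, had 4.40 and 4.14 rlog in cKO after LPS, against 6.05 and 5.29 in cKO at 0 h. In WT it had 4.39 and 4.27 after LPS, against 4.81 and 5.67 at 0 h. The LPS samples of both genotypes lay close together, and the samples at 0 h were spread over more than 1 log2 unit. The averaged difference was -1.16 (SE 0.23, limma adjusted p = 0.00316), with -1.40 (SE 0.33, adjusted p = 0.0112) in cKO and -0.91 (SE 0.33, adjusted p = 0.0543) in WT. The cKO call was lost without cKO 0 h replicate 1 (-1.02, adjusted p = 0.071) or cKO LPS replicate 2 (-1.27, adjusted p = 0.0736).

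Ogg1, the glycosylase for oxidised guanine, fell by 0.62 (SE 0.20, limma adjusted p = 0.0281) with the genotypes averaged, and Apex1, the endonuclease that cuts at the abasic site, fell by 0.56 (SE 0.17, adjusted p = 0.0238). Neither was called within a genotype. The Ogg1 call was lost without cKO LPS replicate 1, cKO 0 h replicate 2 or any 1 of the 4 WT samples, with differences of -0.64 to -0.41. The Apex1 call was lost without cKO LPS replicate 2 (-0.43), cKO 0 h replicate 1 (-0.49), WT LPS replicate 2 (-0.53) or WT 0 h replicate 2 (-0.42). Mutyh, the adenine glycosylase that acts opposite oxidised guanine, ran from 2.18 to 2.68 rlog and was not tested.

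Nucleotide excision repair recognises bulky lesions with XPC and the DDB1 and DDB2 pair, opens the helix with the ERCC2 and ERCC3 helicases of TFIIH, and cuts with ERCC5 and the ERCC1 and ERCC4 nuclease. Xpc had 5.99 and 5.83 rlog in cKO after LPS, against 6.99 and 6.87 in cKO at 0 h. The WT values were 5.71 and 5.52 after LPS, against 6.88 and 6.69 at 0 h. Every LPS sample lay below every sample at 0 h (-1.02, SE 0.17, limma adjusted p = 0.00198 in cKO, and -1.17, SE 0.17, adjusted p = 0.000757 in WT). Ercc5 fell by 0.80 (SE 0.19, adjusted p = 0.0111) in cKO and by 0.84 (SE 0.19, adjusted p = 0.0074) in WT, and its cKO call was lost without cKO 0 h replicate 1 (-0.79, adjusted p = 0.0513) or cKO LPS replicate 1 (-0.76, adjusted p = 0.0612). Ercc2 was called higher in cKO (0.89, SE 0.19, adjusted p = 0.00719) and had 0.48 (SE 0.19, adjusted p = 0.0752) in WT.

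The other 6 genes of nucleotide excision repair were not called for LPS in any comparison. Ddb1, Ercc1 and Ercc3 had LPS differences between -0.12 and 0.16 in both genotypes, with SEs of 0.13 to 0.15. Ddb2, a known p53 target in human cells, had 0.16 (SE 0.28) in cKO and -0.62 (SE 0.28) in WT. Xpa, the scaffold of the incision complex, and Ercc4 lay between -0.40 and 0.11, with SEs of 0.23 to 0.33.

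Fanca, a core subunit of the Fanconi anaemia ubiquitin ligase that handles DNA crosslinks, rose in both genotypes. It had 6.51 and 6.58 rlog in cKO after LPS, against 4.86 and 5.04 in cKO at 0 h. In WT it had 6.29 and 6.19 after LPS, against 4.55 and 4.90 at 0 h. All 4 LPS samples lay above all samples at 0 h, with 1.59 (SE 0.19, limma adjusted p = 0.00034) in cKO and 1.52 (SE 0.19, adjusted p = 0.000332) in WT. Fanca shares 441 exon bases with Zfp276 on the opposite strand, whose averaged difference was 0.18 (adjusted p = 0.394). Fancd2 and Fanci, the pair that this ligase modifies, ran from 1.68 to 2.26 and from 2.18 to 2.55 rlog and were not tested. Of the RecQ helicases, Wrn was called higher in WT (0.50, SE 0.16, adjusted p = 0.0319) and had 0.09 (SE 0.16) in cKO. The Wrn call was lost when any 1 of the 4 WT samples was left out (0.45 to 0.56, adjusted p of 0.0645 to 0.129). Blm had -0.27 (SE 0.18) in cKO and -0.34 (SE 0.18) in WT.

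Counted within each genotype, 5 genes rose and 13 fell after LPS in cKO, where 19.6% of all tested genes rose and 17.5% fell. In WT 6 genes rose and 11 fell, where 22.5% of all tested genes rose and 19.7% fell. These 2 comparisons share no samples, although they share 1 estimate of the spread. Of the genes that rose, 4 were called in both genotypes, which is 80% of the cKO list and 66.7% of the WT list. Of those that fell, 10 were called in both, which is 76.9% of the cKO list and 90.9% of the WT list. The overlap over all tested genes was not computed, so these shares are not shown to be particular to the repair genes. Without WT LPS replicate 2, 11 genes were called in WT.

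The authors' deposited table, with its own adjusted p-values, called 13 of the 49 genes for LPS in cKO, beside 15% of all genes with a value there. It called 9 in WT, beside 15.3% of all genes. Every gene in those 2 sets was also called here in the same genotype. Called here and not in the authors' deposited table were Ercc5, Lig3, Msh3, Palb2 and Prkdc in cKO, and Brca1, Ercc5, Lig3, Msh3, Pms2, Prkdc, Wrn and Xrcc1 in WT. Log2 fold changes in the authors' deposited table were larger than the rlog differences, at -2.49 in cKO and -3.22 in WT for Chek2, 1.76 in cKO and 2.56 in WT for Atm, and -2.20 in cKO and -2.62 in WT for Xrcc6.

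A further list held genes that act beside these 49 in the same pathways. Of its 114 tested genes 42 fell (36.8%) and 21 rose (18.4%) with the genotypes averaged, beside 26.6% and 27.3% of all tested genes, with a median difference of -0.13, beside -0.02. The smaller groups of this list are given as counts, and no group was tested against the other genes. Rpa1 and Rpa3, which encode subunits of the single-strand binding protein RPA, fell by 1.16 (SE 0.12, limma adjusted p = 7.84e-05) and by 1.15 (SE 0.13, adjusted p = 0.000104). Among 16 tested recombination partners 9 fell, and 1 rose, Rbbp8, the gene of the end-resection factor CtIP (1.57, SE 0.14, adjusted p = 3.75e-05). Of 8 mismatch partners 6 fell, among them the clamp loader gene Rfc2 and the polymerase delta gene Pold1 (both -0.95), and Rfc3 rose by 1.60 (SE 0.10, adjusted p = 4.34e-06). Of 18 nucleotide excision partners 5 fell, 27.8% of the group and near the share of all tested genes, and none rose (with limma, 5 of the 18 had an unadjusted p under 0.05), with Uvssa at -1.27 (SE 0.16, adjusted p = 0.000211) and the TFIIH gene Gtf2h2 at -1.01 (SE 0.10, adjusted p = 5.89e-05).

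Checkpoint and chromatin partners went both ways. Of 12 tested checkpoint partners 4 rose and 2 fell. Timeless, a replication fork protector, rose by 2.67 (SE 0.19, limma adjusted p = 8.86e-06), while its binding partner gene Tipin fell by 1.0 (SE 0.15, adjusted p = 0.000569). H2afx, the gene of the histone that ATM phosphorylates at breaks, fell by 0.83 (SE 0.14, adjusted p = 0.00101), and Mad2l2, a member of the shieldin complex downstream of 53BP1, rose by 0.72 (SE 0.11, adjusted p = 0.000856). Among the end joining partners, Aplf, a scaffold that binds Ku, fell by 1.34 (SE 0.12, adjusted p = 2.99e-05), and the gap-filling polymerase gene Polm rose by 0.71 (SE 0.14, adjusted p = 0.00301). Of 15 partners in base excision and single-strand break repair 6 fell and 5 rose, led by the glycosylase gene Nthl1 at -1.08 (SE 0.15, adjusted p = 0.000406) and the thymine glycosylase gene Tdg at 1.21 (SE 0.12, adjusted p = 4.55e-05). Of 15 Fanconi and helicase partners 4 fell, with Recql at -1.44 (SE 0.13, adjusted p = 2.99e-05), and 3 rose, with the topoisomerase gene Top3a at 0.91 (SE 0.13, adjusted p = 0.000412).

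Genes of the dividing cell moved beside these changes. The mean rlog of 24 S phase genes was 5.58 to 5.61 in cKO after LPS, against 6.05 to 6.23 in cKO at 0 h, and 5.59 to 5.84 in WT after LPS, against 6.05 to 6.07 in WT at 0 h. The mean of 20 G2 and M phase genes was 4.66 to 4.70 in cKO after LPS, against 5.11 to 5.27 in cKO at 0 h, and 4.64 to 4.88 in WT after LPS, against 4.96 to 5.24 in WT at 0 h. With the genotypes averaged, 14 of 23 tested S phase genes fell (60.9%) and 4 rose (17.4%). Of 19 tested G2 and M phase genes 13 fell (68.4%) and 3 rose (15.8%). Of all tested genes 26.6% fell and 27.3% rose. Single genes departed from the falling means. The proliferation marker gene Mki67 rose by 1.76 (SE 0.18, limma adjusted p = 6.41e-05), the spindle factor gene Tpx2 by 2.42 (SE 0.11, adjusted p = 1.49e-06) and the cyclin gene Ccne1 by 1.39 (SE 0.13, adjusted p = 3.68e-05), while the nucleotide reductase gene Rrm2 fell by 1.73 (SE 0.28, adjusted p = 0.000966). Of 13 tested p53 target genes 6 fell (46.2%), led by Sesn1 at -2.85 (SE 0.14, limma adjusted p = 1.77e-06). In that list 4 rose (30.8%, near the share of all tested genes). Among them was Mdm2, the gene of the ubiquitin ligase that degrades p53, at 1.62 (SE 0.08, adjusted p = 1.95e-06). The part of these 3 lists in the changes of the repair genes was not tested.

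Most markers of other cells were below the limit for testing, but several that were tested changed after LPS. No erythroid or fibroblast marker and 2 of 10 neutrophil markers, S100a8 and Camp, reached the limit for testing. Ly6g lay between -2.03 and -1.98 rlog in all samples. The fibroblast marker Dcn had 3.97 rlog in cKO LPS replicate 2, against 1.70 to 2.80 in the other samples. The mean of the neutrophil list was 1.69 to 2.01 in cKO after LPS, against 1.5 to 1.61 in cKO at 0 h, and 1.59 to 2.16 in WT after LPS, against 1.30 to 1.67 in WT at 0 h. Of 7 T and NK cell markers Lck was tested and ran from 4.58 to 8.06, with Cd3e between -2.17 and -2.12. With the genotypes averaged Lck rose by 3.07 and Camp by 1.52 (limma adjusted p = 2.97e-06 and 0.00229). The dendritic cell markers Xcr1 and Zbtb46 rose by 1.03 and 0.85 (adjusted p = 0.00182 and 0.0038), and the B cell marker Cd79b fell by 1.34 (adjusted p = 0.0037). The macrophage list averaged 12.15 in both cKO samples after LPS and 11.75 to 11.89 in cKO at 0 h, against 12.58 to 12.81 in WT after LPS and 12.24 to 12.28 in WT at 0 h. The part of these shifts in the results was not tested.

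Between the genotypes few repair genes were called, and Rnf168 was the 1 called at a single time. At 0 h none of the 43 was called with limma, beside 0.052% of all tested genes called higher and 0.199% called lower in cKO, and 4 of the 43 had an unadjusted p under 0.05, beside 1256 of all 11543 tested genes. None of the 49 was called at 0 h in the authors' deposited table, beside 0.806% of all genes. The median difference of the 43 genes was -0.02, beside -0.01 over all tested genes. After LPS 1 gene was called, Rnf168, which was higher in cKO, beside 1.51% of all tested genes called higher and 2.46% called lower. Before adjustment 13 of the 43 had a p under 0.05 after LPS, beside 2483 of all 11543, and their median difference was 0.05, beside -0.03 over all tested genes. With the times averaged 8 had an unadjusted p under 0.05, beside 2715 of all 11543. With the times averaged Rnf168 was again called higher and Blm was called lower, beside 2.88% of all tested genes called higher and 4.14% called lower. Each of these single calls is 2.33% of the 43 genes, near the share of all tested genes.

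Rnf168 encodes the ubiquitin ligase that marks histone H2A for 53BP1. It had 6.30 and 6.67 rlog in cKO after LPS, against 4.95 and 5.52 in WT after LPS. At 0 h it had 6.07 and 6.62 in cKO, against 5.83 and 5.44 in WT. All 4 cKO samples lay above all 4 WT samples, and the replicates of each group lay some way apart. Samples with the same number at the 2 times may share a source, so the 4 samples of a genotype may not be independent. The averaged p-value below treats them as independent. The difference was 1.25 (SE 0.28, limma adjusted p = 0.0488) after LPS, at 0 h 0.71 (SE 0.28, adjusted p = 0.42), and with the times averaged 0.98 (SE 0.20, adjusted p = 0.026). The authors' deposited table gave a log2 fold change of 1.69 (adjusted p = 0.0201) after LPS, and Rnf168 was the 1 gene of the 49 that it called there, beside 2.97% of all genes.

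The Rnf168 call after LPS sits at the threshold. It was lost without WT LPS replicate 1 (0.96, adjusted p = 0.193), WT LPS replicate 2 (1.53, adjusted p = 0.0511), cKO LPS replicate 1 (1.43, adjusted p = 0.14) or cKO LPS replicate 2 (1.06, adjusted p = 0.283). It was also lost without WT 0 h replicate 1 or 2 (1.25 in both, adjusted p of 0.0618 and 0.0613), which change only the shared estimate of the spread. The call with the times averaged was lost without 6 of the 8 samples, with adjusted p of up to 0.112, and held without cKO 0 h replicate 1 (1.11) or WT LPS replicate 2 (1.12). Rnf168 lies at chr16:32277459-32301434 on the plus strand.

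Blm, the RecQ helicase that unwinds recombination intermediates, had 4.48 and 4.36 rlog in cKO after LPS, against 5.08 and 4.91 in WT after LPS. At 0 h it had 4.57 and 4.81 in cKO, against 5.34 and 5.32 in WT. The cKO samples lay below the WT samples at both times, although same-numbered samples of the times may share a source. The averaged fit does not allow for that. The averaged difference was -0.61 (SE 0.13, limma adjusted p = 0.0299), with -0.57 (SE 0.18, adjusted p = 0.113) after LPS and -0.64 (SE 0.18, adjusted p = 0.264) at 0 h. The averaged call was lost without any 1 sample other than WT LPS replicate 2, with differences of -0.67 to -0.55 and adjusted p of 0.0522 to 0.12.

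Xpa and Wrn lay close to the threshold in the averaged comparison. Xpa had 6.06 and 6.33 rlog in cKO after LPS, against 4.94 and 5.39 in WT after LPS, and 5.55 and 6.62 in cKO at 0 h, against 5.17 and 5.32 in WT at 0 h. The cKO samples were above the WT samples at each time, but the 2 cKO samples at 0 h differed by 1.07, the largest replicate difference among the 43 genes in that group. The averaged difference was 0.93 (SE 0.24, limma adjusted p = 0.0523). Wrn had an averaged difference of -0.44 (SE 0.11, adjusted p = 0.0519), and Xrcc5 and Chek2 had 0.67 (SE 0.18, adjusted p = 0.0636) and 0.42 (SE 0.12, adjusted p = 0.0674). The other genes of the 53BP1 group, Trp53bp1, Rif1, Mdc1 and Rnf8, had averaged differences of 0.28, -0.11, 0.00 and -0.07, with SEs of 0.12 to 0.14.

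**Figure D3:**
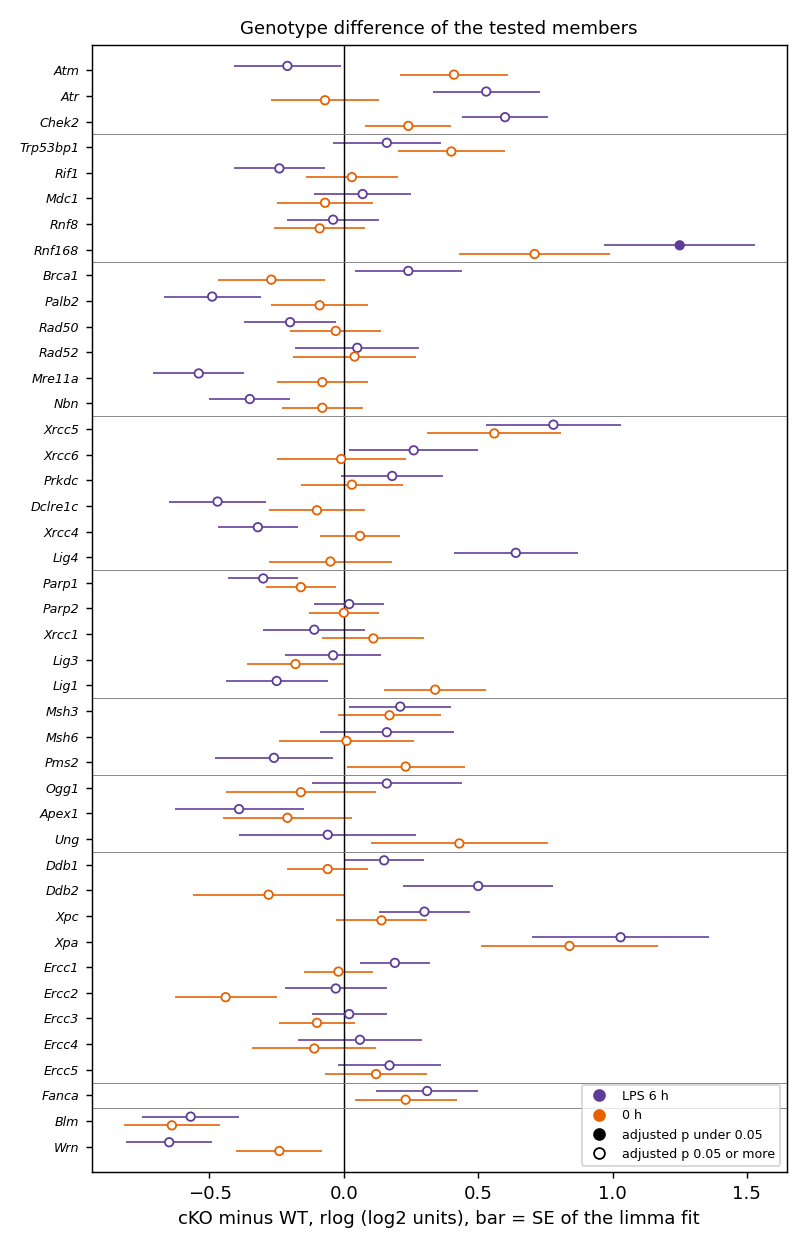
Points give the rlog difference of cKO minus WT for each of the 43 tested genes, in log2 units, purple after LPS and orange at 0 h, with bars of 1 SE from the limma fit. The 1 filled point, with an adjusted p under 0.05, is Rnf168 after LPS at 1.25.

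Among the 114 tested partner genes, Paxip1 itself was the 1 called at 0 h, and Paxip1 and Rpa2 were called lower in cKO after LPS. Rpa2, an RPA subunit, had a difference of -0.91 (SE 0.14, limma adjusted p = 0.0178) after LPS. With the times averaged, Paxip1, Rpa2 and Gtf2h2 were called lower and Parg, the enzyme that removes poly(ADP-ribose), was called higher (0.92, SE 0.18, adjusted p = 0.0245). Of the macrophage markers, Itgam and Mertk were lower in cKO after LPS (-1.11 and -1.10). Mki67, from the G2 and M phase list, was lower there too (-1.23, SE 0.25, limma adjusted p = 0.0365). The other tested genes of that list were not called there and lay on both sides of 0, from -0.74 to 0.81. The list mean overlapped between the genotypes, at 4.66 to 4.70 rlog in cKO after LPS and 4.64 to 4.88 in WT after LPS. With the times averaged 4 of the 9 macrophage markers were lower in cKO, among them Lyz2 (-0.92, adjusted p = 0.0442) and Cd14 (-0.80, adjusted p = 0.0432), and the neutrophil marker S100a8 was higher in cKO (0.96, adjusted p = 0.0102). The part of these shifts in the genotype differences was not tested.

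The LPS change did not differ detectably between the genotypes for any repair gene. None of the 43 passed the interaction test with limma, beside 0% of all tested genes higher and 0% lower, and 0 of the 43 had an unadjusted p under 0.05, against 751 of all 11543. The smallest unadjusted p was 0.0629, for Lig1, and the smallest adjusted p among the 43 was 0.764. The SEs of these differences ran up to 0.47, for Ung and Xpa. The genes called in 1 genotype and not in the other after LPS, among them Dclre1c, Lig1, Ercc2, Brca1 and Palb2, are therefore not shown to respond differently.

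**Figure D4:**
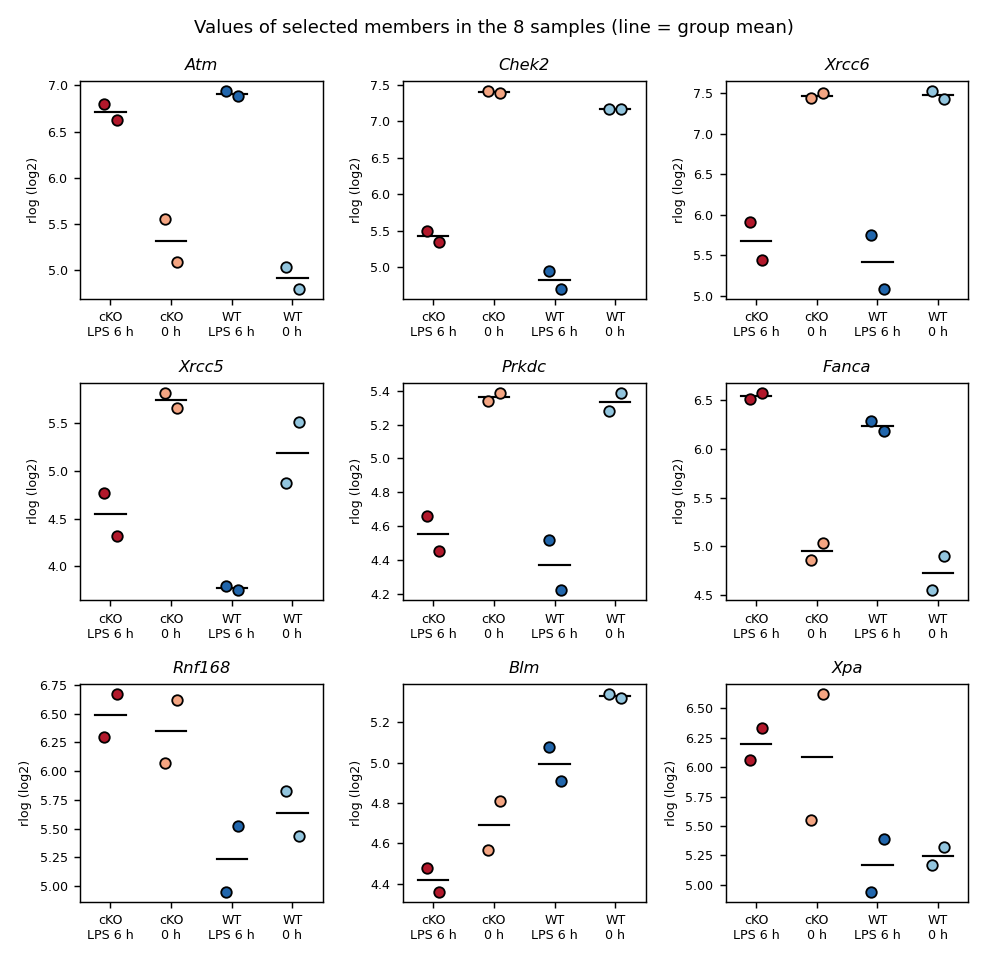
Each panel gives the rlog value of 1 gene in the 8 samples, in log2 units on its own axis, with points for samples and a line for the group mean. Chek2, Xrcc6, Xrcc5 and Prkdc are lower and Atm and Fanca higher after LPS in both genotypes, Rnf168 is higher and Blm lower in cKO, and the 2 cKO samples at 0 h stand 1.07 apart for Xpa.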

How the data were processed

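Poly(A) RNA was reverse transcribed with random primers, per the labels' protocols. Tools named in the submitters' processing notes are featureCounts, DESeq2, CASAVA and HISAT2 2.1.0, with the build GRCm38 and no settings. The strand setting is not given in the sources used here, and 25 of the 49 genes share exon bases with another gene. The authors deposited 1 table of rlog values, which are log2 expression values after shrinkage of low genes. The same deposited table holds the authors' p-values, adjusted p-values and log2 fold changes for 4 comparisons.

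The 11543 of 55226 genes that averaged 3 rlog or more were fitted with limma 3.58.1 in R 4.3.3, using 4 group means, 8 samples and a variance trend. The fit had 4 residual and 4.4 prior degrees of freedom. All tests were two-sided with Benjamini-Hochberg adjustment over all tested genes, in 7 comparisons. Per-sample values are given for called genes with a log2 difference of at least 1 in either direction, for genes called between genotypes and, chosen after their values were seen, for Parp1, Prkdc and Xpa. Partner and marker genes were named if among the 2 largest rises or falls of a list with groups that did not overlap. Exceptions were Gtf2h2 and Cd14 between genotypes and the markers Ly6g, Cd3e and Dcn. The members and lists were chosen with earlier results of these data known. Positions come from GENCODE M21 and promoters from RefSeq on GRCm38.p6. Alternatives changed the filter, scaling, variance model, samples, replicate block or test. The script was tested on simulated data.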

Additional observations from a re-analysis of the deposited data

Results flagged for a closer look

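For 5 of the 43 tested genes every sample lay on one side of its comparison group in 1 contrast and on the other side in the matching contrast, with no overlap in either. The share of all tested genes with such a pattern was not computed, so whether this count is unusual is not known. None passed the interaction test of limma, so a difference between the groups is not shown. Other genes also had differences of opposite sign, but with samples that overlapped in at least 1 contrast. Atm, after LPS, was lower in cKO than in WT by a log2 difference of -0.21, and at 0 h it was higher in cKO by 0.41, a difference between these differences of -0.61 (SE 0.29, limma adjusted p = 0.764). Brca1 differed between cKO and WT by 0.24 after LPS and by -0.27 at 0 h, with an interaction of 0.51 (SE 0.28, limma adjusted p = 0.776). Lig1 differed between cKO and WT by -0.25 after LPS and by 0.34 at 0 h, with an interaction of -0.59 (SE 0.27, limma adjusted p = 0.764). Mre11a changed after LPS by -0.12 in cKO and by 0.33 in WT, with an interaction of -0.45 (SE 0.24, limma adjusted p = 0.775). Lig4 changed after LPS by 0.24 in cKO and by -0.45 in WT, with an interaction of 0.69 (SE 0.32, limma adjusted p = 0.764).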

How the results depend on the processing

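Of 60 calls of single repair genes over the comparisons, 39 held under every alternative that could be run, and none changed sign. The number called for LPS in cKO was 18 and ran from 13 to 18 when 1 sample was left out. For LPS in WT it was 17, with 9 in the authors' deposited table and 11 to 18 when 1 sample was left out. For LPS averaged it was 22, with 20 to 23 when 1 sample was left out. For cKO after LPS it was 1, with 0 under quantile normalization, 0 without a variance trend and 0 to 2 when 1 sample was left out. For cKO averaged it was 2, with 4 (Blm, Rnf168, Wrn and Xpa) when samples were centred on their medians and 0 to 2 when 1 sample was left out. No repair gene was called for cKO at 0 h or the interaction under any alternative run. The cause of these shifts was not tested. With the replicate number as a block, 2 genes (Rnf168 and Xpa) were called for cKO after LPS and 4 for cKO averaged. The deviations of same-numbered samples correlated at 0.311 between the cKO groups and 0.222 between the WT groups. Between groups of different genotype the correlations were lower, at -0.0418 to 0.2. Whether same-numbered samples of a genotype share a source is not stated, and the main fit did not treat them as pairs. Blocks by genotype and number could not be fitted to the genotype comparisons, nor could fits of only the groups compared be made for the averages and the interaction. A sample left alone in its group is assumed to vary like the others. A minimum mean rlog of 5 left 33 of the 49 genes tested. Depth is unknown, so what it limits cannot be given.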

Other observations

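Genes of translesion synthesis and direct reversal, which tolerate or undo base damage without excision, formed a small group of the partner list. Of 8 tested genes 4 fell (50%) and 1 rose (12.5%) after LPS with the genotypes averaged, beside 26.6% and 27.3% of all tested genes. The group was not tested against the other genes. Mgmt, the methyltransferase that removes alkyl groups from guanine, had a log2 difference of -1.16 (SE 0.16, limma adjusted p = 0.000408), and the translesion polymerase gene Polk had -0.98 (SE 0.12, adjusted p = 0.000171). Alkbh3, a demethylase of alkylated DNA and RNA, had 0.34 (SE 0.11, adjusted p = 0.0305). No gene of this list was called between the genotypes at 0 h, after LPS or with the times averaged.

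Several overlapping neighbours moved otherwise than the repair gene they overlap. Acp2, on the opposite strand of Ddb2 with 441 shared exon bases, rose after LPS by 1.0 with the genotypes averaged (limma adjusted p = 0.000141), while Ddb2 had -0.23. Pip4p1, on the opposite strand of Apex1 with 684 shared bases, rose by 0.62 (adjusted p = 0.0233), while Apex1 fell by 0.56.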
